A study of Homo sapiens with 9 samples.

Results

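Aminoacyl-tRNA synthetases attach each amino acid to its tRNA, and the RNA levels of 36 genes that encode them were examined in SKMEL28 cells, a human melanoma line. The genes were found by their symbols in the deposited tables, which list 48162 genes. Of these 36 genes, 20 encode cytosolic enzymes and 16 encode mitochondrial enzymes, whose symbols end in ARS2. Cells in the shCont group carried a control hairpin against GFP, those in the shp16 group a hairpin against p16, the cell cycle inhibitor encoded by CDKN2A, and those in the shp16+shATR group hairpins against p16 and against ATR, a kinase of the DNA damage response. All groups were infected with lentivirus, grown in medium with 5% serum and selected for 3 days with puromycin at 1 µg/ml. Each group has 3 libraries. The labels do not say whether they came from separate cultures. The paper that reported these data describes its LSS mRNA values as 1 experiment with 3 technical replicates. It does not say whether those values came from these libraries. The p-values here therefore measure the spread between these libraries, which may be technical only. The 3 count columns of shp16+shATR share 1 name and are called libraries a, b and c.

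Cytosolic and mitochondrial translation use separate sets of synthetases in human cells, nearly all of them encoded by separate nuclear genes. GARS and KARS are exceptions, since each supplies both compartments, and EPRS joins the glutamate and proline enzymes in 1 protein. Several cytosolic enzymes are held in the multi-tRNA synthetase complex. When amino acids run short, uncharged tRNA activates the kinase GCN2 (EIF2AK4), and the transcription factor ATF4 then induces many of the cytosolic synthetase genes through C/EBP-ATF response elements. WARS, the tryptophan enzyme, is also known to be induced by interferon gamma.

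The core of the C/EBP-ATF response element, TGATGNAA, was searched on both strands of RefSeq promoters (GRCh38.p14), each of which covers 250 bases before and 50 bases from the start site on. An entry was found for 30 of the 36 genes. The motif was present in 7 of 16 cytosolic genes and in 1 of 14 mitochondrial genes with an entry, against 4.46% of the 27305 gene symbols in the promoter table. All 7 cytosolic genes belong to the 12 known as ATF4 or amino acid response genes, of which 10 had an entry, and none of the 6 other cytosolic genes with an entry had a match. The matches are shown with 11 bases on each side, 5′ to 3′ on the strand of the gene, because ATF4 is known to act through this element. A match is a description of the sequence, and binding was not measured. Capitals mark the motif, which reads TTNCATCA where it lies on the opposite strand.
AARS, chr16:70289675-70289704, minus strand: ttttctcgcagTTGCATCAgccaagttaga
CARS, chr11:3057407-3057436, minus strand: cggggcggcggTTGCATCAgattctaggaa
GARS, chr7:30594834-30594863, plus strand: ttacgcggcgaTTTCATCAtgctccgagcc
IARS, chr9:92293692-92293721, minus strand: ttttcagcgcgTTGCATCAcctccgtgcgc
MARS, chr12:57488053-57488082, plus strand: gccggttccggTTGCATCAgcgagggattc
NARS, chr18:57621804-57621833, minus strand: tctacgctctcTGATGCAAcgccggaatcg
TARS, chr5:33440956-33440985, plus strand: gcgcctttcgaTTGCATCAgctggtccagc
YARS2, chr12:32756076-32756105, minus strand: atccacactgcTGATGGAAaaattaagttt
In 6 of the 7 cytosolic genes the match lay within 50 bases of the start site, and in AARS it began 187 bases before it. WARS and LARS2, whose levels are described further on, had an entry and no match.

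The targeted genes were examined first, in counts scaled to library depth by edgeR's TMM normalization (CPM). CDKN2A had 162, 112 and 103 CPM in shCont, 78.1, 93.5 and 99.9 in shp16 and 82.4 to 90.0 in shp16+shATR. Its log2 fold change between shCont and shp16 was −0.48 (adjusted p = 0.0723), which did not pass the threshold of 0.05. It was −0.26 without the library labelled shCont replicate 1 and −0.16 without that library and shp16 replicate 1 (adjusted p = 0.0681 and 0.0817), and counts per gene do not separate p16 from the other products of this gene. ATR had 39.9 to 41.0 CPM in shp16+shATR and 83.4 to 93.5 in shp16 (log2 fold change −1.12, adjusted p = 0.0128, and 0.0554 without shp16 replicate 1). In shCont, ATR was at 93.5 and 96.4 CPM in replicates 2 and 3 but at 46.0 CPM in the library labelled shCont replicate 1, close to the shp16+shATR libraries. SARS, at 333 CPM in that library, also lay among the shp16+shATR libraries (325 to 343 CPM). WARS did not, at 137 CPM against 230 to 259 CPM, nor did the keratin genes KRT5 and KRT14, at 0 against 0.359 to 2.77 CPM. Whether its label is right was not tested. That library and shp16 replicate 1 also stood apart from the others of their groups across all genes, with a chi-square per degree of freedom of at least 66.8 and 35.6 against each of them, where the other pairs within a group had 1.93 to 9.52. Results were therefore also computed without both of these libraries. That fit was chosen after seeing the data and keeps only replicates 2 and 3 of shCont and of shp16.

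Total counts ranged from 17314662 to 23588174 per library. Melanocyte markers were abundant in all libraries, with MITF, PMEL, MLANA, TYR, DCT and SOX10 together at 7374 CPM in shp16 replicate 1 and at 10347 to 14164 CPM in the other libraries. Of the markers of other cells, PTPRC was at 0 in all 9 libraries. The keratins KRT5 and KRT14 had 0 to 0.154 CPM in shCont, 2.03 to 2.99 CPM in shp16 and 0.359 to 2.77 CPM in shp16+shATR. The 5 markers of other cells with a row summed to 0.486 to 0.699 CPM in shCont, 5.02 to 6.17 CPM in shp16 and 2.97 to 5.59 CPM in shp16+shATR, and the part of such RNA in the results was not tested. In RNA from whole cultures, a change in the share of cells cannot be told apart from a change of RNA per cell.

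All 36 genes were tested among the 15776 genes that passed the filter on low counts. Levels of different genes are compared in FPKM, which scale the counts by gene length and by the total of the library. The cytosolic genes had a median of 47.5 FPKM over the 9 libraries, from 15.96 for CARS, the cysteine enzyme, to 163 for SARS, the serine enzyme. The mitochondrial genes other than SARS2 had a median of 12.4 FPKM, from 4.84 for PARS2, the proline enzyme, to 42.0 for IARS2, the isoleucine enzyme. In 14 pairings of a cytosolic gene with the mitochondrial gene for the same amino acid, SARS2 left out, the cytosolic gene had the higher FPKM in 12, with a median ratio of 3.75. The exceptions were CARS against CARS2 (ratio 0.59) and IARS against IARS2 (ratio 0.954). The ratio was highest for FARSA, a subunit of the cytosolic phenylalanine enzyme, against FARS2 (8.67).

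**Figure D1:**
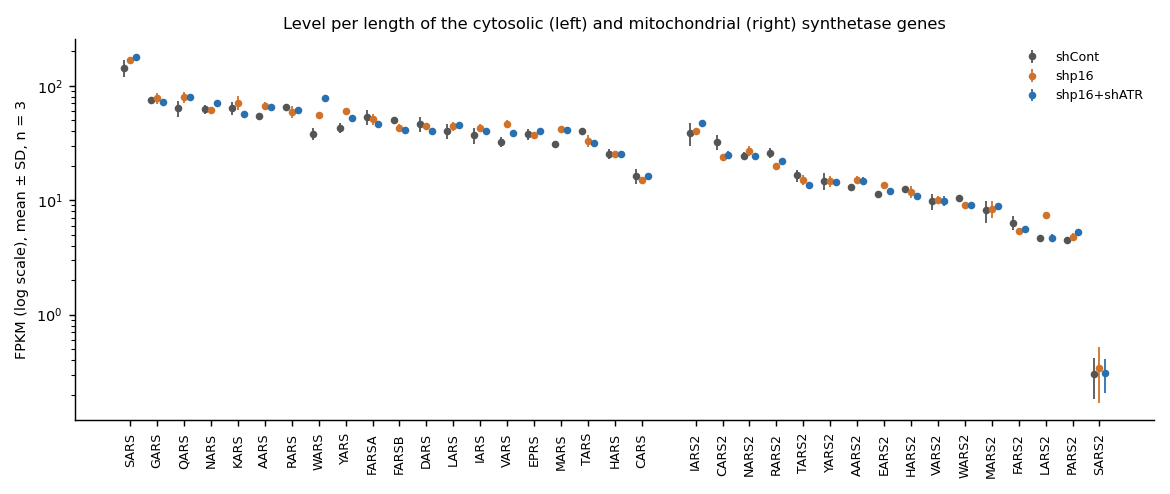
FPKM of each synthetase gene on a log scale, as mean ± SD of the 3 libraries of shCont (grey), shp16 (orange) and shp16+shATR (blue), with cytosolic genes on the left and mitochondrial genes on the right, each ordered by mean level. The group means of cytosolic genes lay between 15.2 and 177 FPKM and those of mitochondrial genes other than SARS2 between 4.48 and 47.0.

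SARS was the most abundant member. In shCont it had 333, 230 and 245 CPM, in shp16 344, 303 and 309 CPM, and in shp16+shATR 332, 325 and 343 CPM. The library labelled shCont replicate 1 lay within the range of the other groups, while the other shCont libraries lay below all of them. SARS did not pass in any comparison with all libraries (log2 fold change 0.24 in shp16, adjusted p = 0.27), and it passed without the library labelled shCont replicate 1 (log2 fold change 0.42 in shp16 and 0.49 in shp16+shATR, adjusted p = 0.00313 and 0.000711).

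SARS2 was the lowest member, with 6 to 20 counts per library. Its symbol has 2 rows, which share 34452 bases, and the other row is at 0 in all libraries. SARS2 also overlaps FBXO17 and MRPS12, which had 27.9 and 47.3 CPM on average, so that its reads could have been left uncounted or counted elsewhere, and its level is uncertain.

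Summed over the 20 cytosolic genes, synthetase RNA stood at 3355, 2911 and 3054 CPM in shCont, at 3922, 3197 and 3236 CPM in shp16 and at 3400, 3300 and 3564 CPM in shp16+shATR. The group means were 3107 ± 226, 3452 ± 408 and 3421 ± 133 CPM (SD, n = 3 each), and the ranges of shCont and shp16 overlapped. The mitochondrial sum differed less, at 721 ± 27.7, 716 ± 7.52 and 713 ± 8.38 CPM. The cytosolic sum was 4.1 to 4.46 times the mitochondrial sum in shCont, 4.49 to 5.41 times in shp16 and 4.57 to 5.04 times in shp16+shATR. The ratios of shCont and shp16 did not overlap. Here shp16 replicate 1 had the highest level of its group in 18 of the 20 cytosolic genes.

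**Figure D2:**
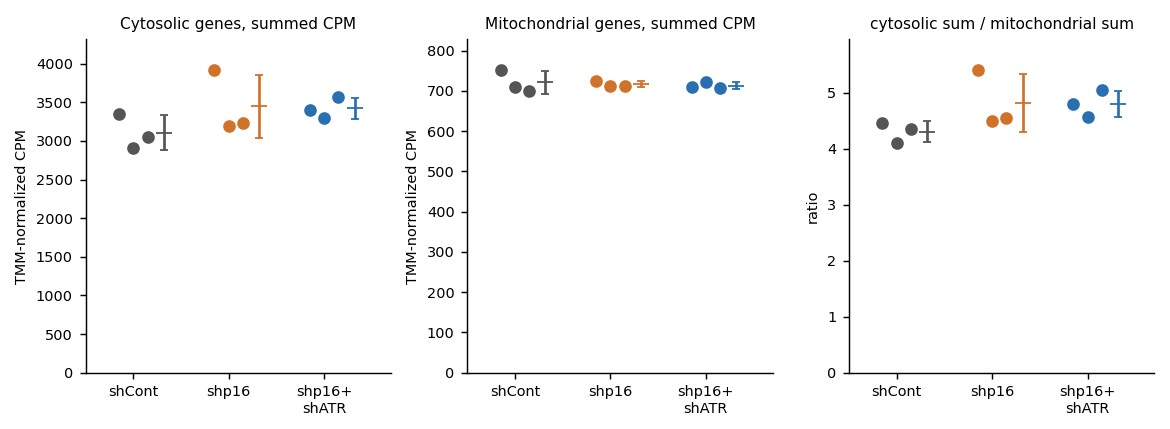
Summed TMM-normalized CPM of the 20 cytosolic genes (left) and the 16 mitochondrial genes (middle) and their ratio (right) in each library, with the mean ± SD of each group beside the points. The mitochondrial sum stayed between 700 and 752 CPM, and the cytosolic sum ranged from 2911 CPM in shCont replicate 2 to 3922 CPM in shp16 replicate 1.

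The comparison of shp16 with shCont asks what knockdown of p16 changed. Of the 36 genes, 7 passed the threshold, 5 higher and 2 lower, where 14.8% of all genes tested passed, 7.23% higher and 7.59% lower. The share of members called was 19.4%. MARS, VARS, WARS and YARS rose among the cytosolic genes and no cytosolic gene fell. Among the mitochondrial genes LARS2 rose, and CARS2 and RARS2 fell. When the shp16 and shCont libraries were fitted alone, LARS2 was the only member that passed, and 7.83% of all genes did. The median log2 fold change was 0.11 over the cytosolic genes and 0.05 over the mitochondrial genes, beside −0.02 over all genes. Without shp16 replicate 1 the cytosolic median was −0.00672, and without both libraries that stood apart it was 0.0462. The mitochondrial median was −0.0377 without shCont replicate 2, −0.0293 without shp16 replicate 3 and 0.121 without both.

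LARS2, the mitochondrial leucine enzyme, had the smallest adjusted p of the members in shp16 against shCont. It had 22.3, 22.8 and 21.8 CPM in shCont, 38.6, 35.4 and 31.7 CPM in shp16 and 23.6, 19.99 and 22.9 CPM in shp16+shATR. All shp16 libraries lay above all libraries of the other groups, which overlapped each other. Relative to shCont, LARS2 rose 1.58-fold in shp16, a log2 fold change of 0.66 (SE 0.12, adjusted p = 0.00285), and it passed whichever single library was left out. Relative to shp16, its log2 fold change in shp16+shATR was −0.67 (SE 0.12, adjusted p = 0.00634). This fall missed the threshold only without shp16+shATR library b when single libraries were left out (adjusted p = 0.0521). Against shCont, LARS2 in shp16+shATR had a log2 fold change of −0.01 (adjusted p = 0.966). Its gene (ENSG00000011376) lies on chromosome 3 from 45429998 to 45590913 in the GRCh37 coordinates of the table, and the antisense gene LARS2-AS1, which shares 25572 bases with it, had 0 to 0.461 CPM.

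LARS, its cytosolic counterpart and a known sensor of leucine for mTORC1, had log2 fold changes of 0.15, 0.02 and 0.17 in the 3 comparisons (adjusted p = 0.498, 0.952 and 0.388).

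WARS (ENSG00000140105, chromosome 14 from 100800125 to 100843142) was higher in shp16 than in shCont and highest in shp16+shATR. It had 137, 100.02 and 116 CPM in shCont, 194, 164 and 160 CPM in shp16 and 236, 230 and 259 CPM in shp16+shATR. No groups overlapped. The log2 fold change was 0.55 between shCont and shp16 (SE 0.13, adjusted p = 0.0167) and 0.49 between shp16 and shp16+shATR (SE 0.13, adjusted p = 0.049). Between shCont and shp16+shATR it was 1.04 (SE 0.13, adjusted p = 0.000218), a 2.06-fold rise, and this call held whichever single library was left out. The rise in shp16 lost its call without shCont replicate 2 or shp16 replicate 1 (highest adjusted p 0.063). The further rise in shp16+shATR lost its call in 7 of the 9 such fits, all but those without the library labelled shCont replicate 1 or shCont replicate 2 (highest adjusted p 0.185). Without both of the libraries that stood apart, the log2 fold changes were 0.58 and 0.57. WARS2, the mitochondrial enzyme for tryptophan, had −0.19, −0.01 and −0.20 and did not pass in any comparison.

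MARS, VARS and YARS, the methionine, valine and tyrosine enzymes, were higher in shp16 than in shCont. MARS (ENSG00000166986) had 116, 108 and 109 CPM in shCont, 174, 139 and 139 CPM in shp16 and 144, 141 and 153 CPM in shp16+shATR. VARS (ENSG00000204394) had 164, 128 and 128 CPM in shCont, 231, 182 and 189 CPM in shp16 and 159, 161 and 183 CPM in shp16+shATR. YARS (ENSG00000134684) had 161, 127 and 129 CPM in shCont, 225, 182 and 181 CPM in shp16 and 167, 164 and 178 CPM in shp16+shATR. For all of these genes the shp16 libraries lay above the shCont libraries, with shp16 replicate 1 the highest of its group.

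With p16 knockdown the log2 fold changes were 0.44 for MARS (SE 0.11, adjusted p = 0.0222), 0.52 for VARS (SE 0.13, adjusted p = 0.0248) and 0.50 for YARS (SE 0.13, adjusted p = 0.0239). Each lost its call without shCont replicate 2 and without shp16 replicate 1, MARS also without shp16+shATR library a, VARS also without shCont replicate 3 or shp16 replicate 3, and YARS also without shCont replicate 3. The adjusted p then reached 0.07 for MARS, 0.0853 for VARS and 0.0839 for YARS, with log2 fold changes of at least 0.33. Without both libraries that stood apart, the log2 fold changes were 0.36, 0.53 and 0.50 (adjusted p = 0.000118, 6.0e-06 and 2.8e-06). In that fit only replicates 2 and 3 of shCont and shp16 remained, and 32.7% of all genes passed, beside 14.8% with all libraries. MARS shares 982 bases with DDIT3 on the opposite strand, which had 4.99 to 11.5 CPM, and YARS shares 1387 bases with S100PBP, which had 38.1 to 58.5 CPM. The library kit does not mark strand, so reads from such shared stretches cannot be assigned.

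**Figure D3:**
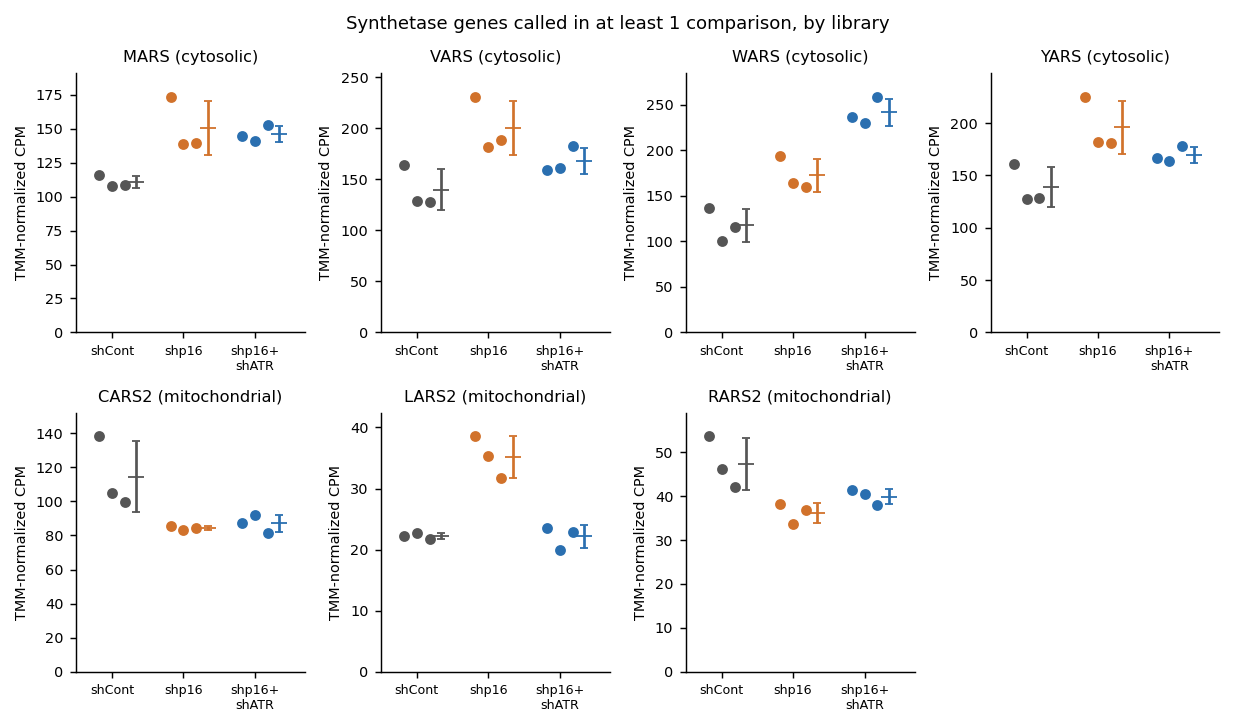
TMM-normalized CPM of the 7 synthetase genes called in at least 1 comparison, with 1 point per library in shCont (grey), shp16 (orange) and shp16+shATR (blue) and the mean ± SD beside the points. WARS was highest in shp16+shATR, at 230 to 259 CPM, and LARS2 was highest in shp16, at 31.7 to 38.6 CPM.

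CARS2 and RARS2, the mitochondrial cysteine and arginine enzymes, fell in shp16. CARS2 (ENSG00000134905) had 138, 105 and 99.9 CPM in shCont, 85.8, 83.2 and 84.4 CPM in shp16 and 87.5, 92.0 and 81.7 CPM in shp16+shATR. RARS2 (ENSG00000146282) had 53.7, 46.3 and 42.0 CPM in shCont, 38.1, 33.7 and 36.9 CPM in shp16 and 41.3, 40.4 and 38.0 CPM in shp16+shATR. The shp16 libraries lay below the shCont libraries for both genes, and the library labelled shCont replicate 1 was the highest.

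CARS2 had a log2 fold change of −0.44 (SE 0.13, adjusted p = 0.0397) and RARS2 of −0.38 (SE 0.12, adjusted p = 0.0443). Both calls held in only 2 of the 9 fits with 1 library left out, those without the library labelled shCont replicate 1 or shCont replicate 3 (highest adjusted p 0.122 and 0.164 in the others). Without both libraries that stood apart, CARS2 had −0.29 and RARS2 −0.32 (adjusted p = 0.00217 and 0.00486), where 32.7% of all genes passed. CARS2 was also lower in shp16+shATR than in shCont, with a log2 fold change of −0.39 (adjusted p = 0.0438), a call lost without any of the shp16 or shp16+shATR libraries (highest adjusted p 0.16). Its log2 fold change in this comparison was −0.24 without the library labelled shCont replicate 1 (adjusted p = 0.0198).

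The 16 other cytosolic genes had log2 fold changes in shp16 from −0.26 for TARS, the threonine enzyme, to 0.33 for QARS, the glutamine enzyme, with 7 above 0 and 9 below. The 12 other mitochondrial genes, SARS2 left out, lay between −0.23 for FARS2 and 0.29 for EARS2, the glutamate enzyme (adjusted p = 0.076). Without the library labelled shCont replicate 1 and shp16 replicate 1, 17 members passed, 11 higher and 6 lower, where 32.7% of all genes passed. The 7 members called with all libraries passed again in the same direction, and AARS, QARS, SARS, AARS2, EARS2 and VARS2 joined the higher and DARS, FARSB, RARS and TARS the lower members.

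Synthetases fall into class I and class II by the fold of their catalytic domain. EPRS was counted in neither class. In shp16, 4 of 9 class I cytosolic genes passed, all higher, with a median log2 fold change of 0.33. Of the class II genes 0 of 10 passed, with a median of −0.01, where 14.8% of all genes passed. Without both libraries that stood apart, 5 class I genes were higher and 1 lower (median 0.36). In that fit 2 class II genes were higher and 3 lower (median −0.02), where 32.7% of all genes passed. Between shp16 and shp16+shATR, 1 class I gene and 0 class II genes passed, where 6.22% of all genes passed. The difference between the classes was not tested.

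Of the 8 members of the multi-tRNA synthetase complex, MARS alone passed in shp16 (12.5%, where 14.8% of all genes passed), and the median of the 8 was 0.16. Of the 12 cytosolic genes known as ATF4 or amino acid response genes, MARS, WARS and YARS passed (25.0%, median 0.19), and of the 8 other cytosolic genes VARS passed (12.5%, median −0.02). Without both libraries that stood apart, the median of the complex was −0.02. The medians of the 12 and the 8 genes were then 0.0462 and 0.0199. In that fit 5 of the 12 genes passed higher and 1 lower, where 32.7% of all genes passed. Of the 8 genes, 2 passed higher and 3 lower. The share called was thus larger among the 8 genes than among the 12, the reverse of the order with all libraries. The 7 cytosolic genes with a promoter match had a median of 0.06, from −0.26 to 0.44, with MARS the only gene called. The 9 with an entry and no match had a median of 0.00, from −0.21 to 0.55, with WARS the only gene called.

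The comparison of shp16+shATR with shp16 asks what knockdown of ATR changed in cells with p16 knockdown. It shares the shp16 libraries with the comparison above. Of the 36 genes, 2 passed (5.56%), WARS higher and LARS2 lower, where 6.22% of all genes passed, 2.73% higher and 3.49% lower. The median log2 fold change was −0.04 over the cytosolic genes and −0.02 over the mitochondrial genes, beside 0.00 over all genes. The other 19 cytosolic genes lay between −0.33 for KARS, the lysine enzyme, and 0.21 for NARS, the asparagine enzyme. The other 14 mitochondrial genes, SARS2 left out, lay between −0.19 for EARS2 and 0.21 for IARS2. MARS, CARS2 and RARS2 had log2 fold changes of −0.04, 0.04 and 0.14, and VARS and YARS −0.25 and −0.21 (adjusted p = 0.325 and 0.41). Without the libraries that stood apart, 8 members passed, with EPRS, NARS, RARS, WARS and IARS2 higher and LARS2, NARS2 and TARS2 lower, where 26.7% of all genes passed.

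In shp16+shATR against shCont, which shares libraries with both comparisons above, 3 of the 36 genes passed (8.33%), where 23.6% of all genes passed, 10.9% higher and 12.7% lower. WARS and MARS were higher and CARS2 was lower. The log2 fold change of MARS was 0.40 (SE 0.11, adjusted p = 0.0234), a call lost without shCont replicate 2, shCont replicate 3 or any shp16+shATR library (highest adjusted p 0.0968). The median was 0.11 over the cytosolic genes and 0.00 over the mitochondrial genes. Without the libraries that stood apart, 15 members passed, 12 of them cytosolic, where 44.3% of all genes passed.

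**Figure D4:**
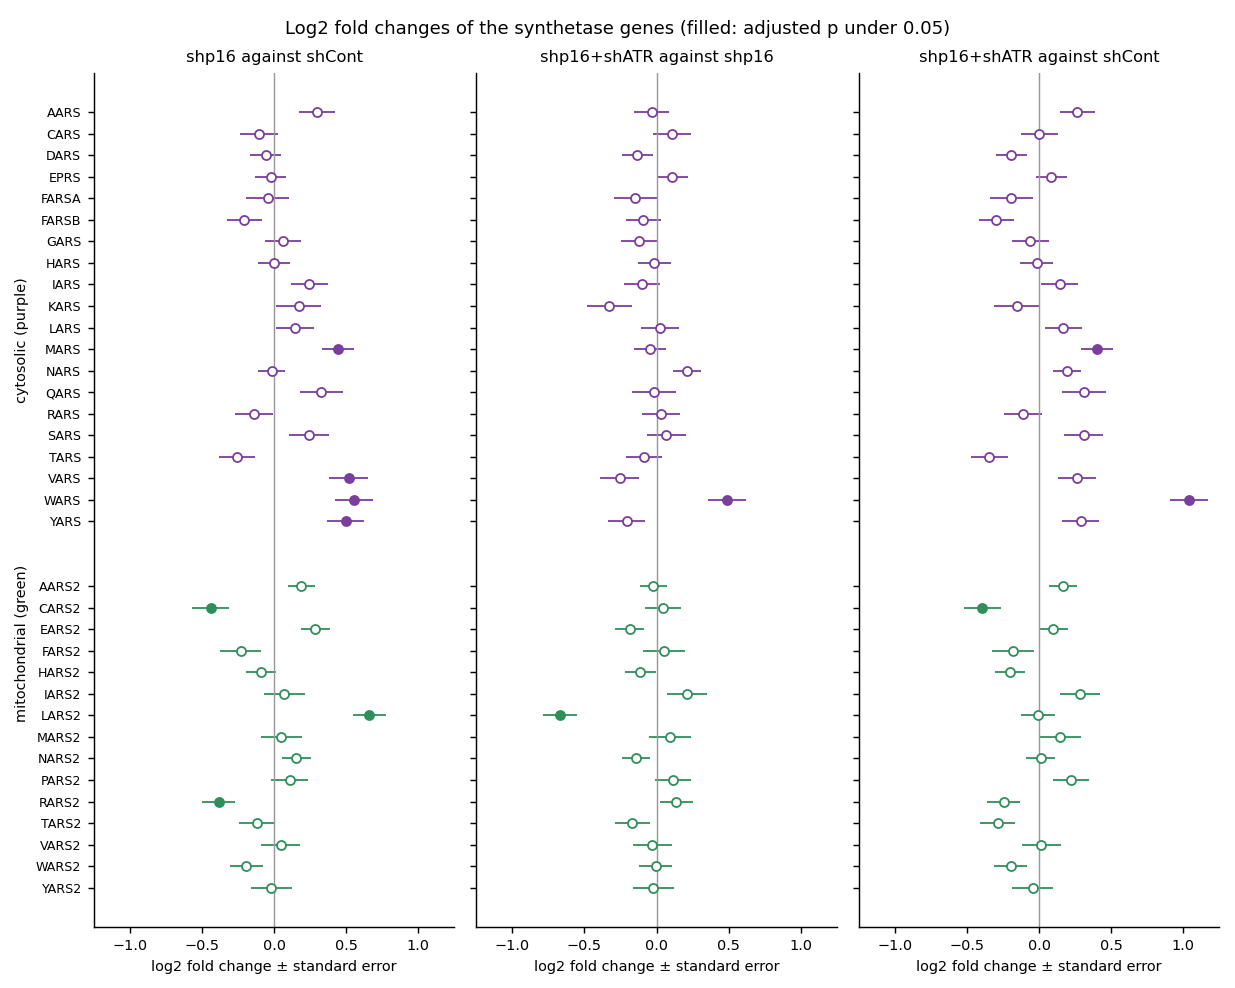
Log2 fold change ± standard error of each synthetase gene except SARS2 in the 3 comparisons, from edgeR, with cytosolic genes in purple, mitochondrial genes in green and filled points for an adjusted p under 0.05. WARS lay at 1.04 in shp16+shATR against shCont, and LARS2 at 0.66 in the left panel and −0.67 in the middle panel.

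Other genes of tRNA charging were counted beside the synthetases, in a list of 15 of which 14 had a row. In shp16 against shCont 2 of 14 rose (14.3%, where 14.8% of all genes passed). GATC, a subunit of the amidotransferase that makes mitochondrial glutaminyl-tRNA, had a log2 fold change of 0.50 (adjusted p = 0.0167), and DTD1, which removes D-amino acids from tRNA, had 0.51 (adjusted p = 0.0236). Between shp16 and shp16+shATR only TARSL2 passed, a cytosolic threonine enzyme related to TARS, with 0.60 (adjusted p = 0.00936). That was 7.14% of the 14, where 6.22% of all genes passed. TARSL2 had 20.6 to 24.8 CPM in shp16 and 33.4 to 34.9 CPM in shp16+shATR. TARS had −0.09 in the same comparison (adjusted p = 0.763). Relative to shCont, in the shp16+shATR group TARSL2, DTD1 and XPOT, an exporter of tRNA from the nucleus, rose and MTFMT, which formylates the initiator tRNA of mitochondria, fell (log2 fold change −0.40, adjusted p = 0.0171). Together they were 28.6% of the 14, where 23.6% of all genes passed. The scaffold genes of the multi-tRNA synthetase complex AIMP1, AIMP2 and EEF1E1 did not pass in any comparison with all libraries. Without the library labelled shCont replicate 1, AIMP1 and AIMP2 fell between shp16 and shp16+shATR (log2 fold change −0.24 and −0.50, adjusted p = 0.0396 and 0.00943). Without shp16 replicate 1, the rises of GATC and DTD1 in shp16 lost their calls (adjusted p = 0.0524 and 0.0856).

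Of 10 amino acid response genes, 4 rose in shp16 and 0 fell (40.0%, where 14.8% of all genes passed), and 1 rose and 2 fell with ATR knockdown on top (30.0%, where 6.22% passed). Without both libraries that stood apart, 8 rose and 0 fell in shp16 (80.0%, where 32.7% of all genes passed), and 1 rose and 6 fell with ATR knockdown (70.0%, where 26.7% passed). CHAC1, which breaks down glutathione, had 0.45 to 1.08 CPM in shCont, 3.90 to 6.34 CPM in shp16 and 0.98 to 1.30 CPM in shp16+shATR, with log2 fold changes of 2.595 in shp16 (adjusted p = 0.000287) and −2.24 with ATR knockdown on top (adjusted p = 0.00224). SESN2, a leucine sensor upstream of mTORC1, rose in shp16 by 0.60 (adjusted p = 0.0197) and fell with ATR knockdown (log2 fold change −0.57, adjusted p = 0.0436). ASNS, the asparagine synthetase, rose in shp16 by 0.40 (adjusted p = 0.0334). DDIT4, an inhibitor of mTORC1, rose in both of these comparisons, with 0.51 and 0.47 (adjusted p = 0.00732 and 0.0224). The RNA of ATF4 itself had −0.05 and 0.03 (adjusted p = 0.911 and 0.965), and it was at 121 CPM in shp16 replicate 1 against 235 and 242 in the other shp16 libraries. Without both libraries that stood apart, ATF4 had a log2 fold change of 0.37 in shp16 (adjusted p = 0.00142) and −0.23 with ATR knockdown (adjusted p = 0.021), passing in both. Without shp16 replicate 1 alone, ASNS in shp16 and SESN2 and DDIT4 with ATR knockdown lost their calls (adjusted p = 0.0993, 0.0882 and 0.0724).

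Of the interferon gamma response genes reported here, 3 of 5 could be tested, and no direction is given for the group. With ATR knockdown the guanylate-binding protein genes GBP1 and GBP2 fell by 0.89 and 0.90 on the log2 scale (adjusted p = 0.00503 and 0.00951). They were 2 of the 3 genes tested (66.7%, where 6.22% of all genes passed). IRF1, the other gene tested, had a log2 fold change of 0.24 (adjusted p = 0.58). IDO1, the interferon-induced enzyme that degrades tryptophan, was at 0 counts in all 9 libraries, and CXCL10 had at most 0.104 CPM. In shp16 against shCont GBP1 alone passed, higher by 0.47 (adjusted p = 0.0477, and 0.11 without shp16 replicate 1). That was 33.3% of the 3 genes tested, where 14.8% of all genes passed.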

How the data were processed

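RNA of SKMEL28 cells was sequenced in 9 libraries, 3 each of shCont, shp16 and shp16+shATR. Novogene prepared the libraries and processed the reads. Whether counting used strand is not given in the sources used here. The submitters' processing notes name STAR 2.6.1, DESeq2 and GRCh38, while the tables carry GRCh37 gene coordinates. Raw counts of reads for 48162 genes, not normalized, were deposited by the authors. The deposited FPKM equalled the counts scaled by gene length and library total, within a relative difference of 4.22e-07. No column was left out.

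Counts were normalized by TMM and tested in R 4.3.3 by quasi-likelihood with edgeR 4.0.16, after filterByExpr, with 1 coefficient per group and all 9 libraries, and adjusted by Benjamini-Hochberg over 15776 genes at 0.05. Depth per library was 17314662 to 23588174 counts, and the biological coefficient of variation was 0.149, or 0.0903 without the library labelled shCont replicate 1. No pair of libraries agreed within sampling noise. The procedure was tested on simulated counts with known fold changes. Their spread was smaller than here and, unlike here, no library stood apart, so that test does not cover those features.

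The members and gene lists were chosen with earlier results of these data known, and no list was tested as a set. From the lists of genes beside the synthetases, 2 genes are not reported here. Every member could be named, and values per library are given for members with an adjusted p under 0.05 in at least 1 comparison and for the highest and lowest by FPKM. Alternatives were DESeq2 1.42.0, other normalizations and filters, fits of the compared groups alone, limma 3.58.1 on log2 FPKM with a pseudocount of 1 or 0.1, an adjusted p of 0.01, the replicate number as a block and each library left out. Leaving out both the library labelled shCont replicate 1 and shp16 replicate 1 was chosen after seeing the data. Promoters came from RefSeq (GRCh38.p14), matched by Ensembl identifier and symbol. Protein sequences were not analysed here.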

Additional observations from a re-analysis of the deposited data

How the results depend on the processing

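With 1 library left out at a time, the number of members called ranged from 1 to 12 in shp16 against shCont, from 0 to 3 in shp16+shATR against shp16 and from 1 to 10 in shp16+shATR against shCont, beside 7, 2 and 3 with all libraries. The lowest numbers came where 10.1%, 1.81% and 14.5% to 14.9% of all genes passed. The highest numbers came without the library labelled shCont replicate 1, where 25.9%, 19.9% and 33.3% of all genes passed. Without both that library and shp16 replicate 1, an alternative added later, 17, 8 and 15 members passed. Of all genes 32.7%, 26.7% and 44.3% passed in these fits. The median log2 fold change of mitochondrial members between shCont and shp16 was then 0.121. Between shCont and shp16 the single omissions moved the median of cytosolic members from −0.00672 to 0.174, the former without shp16 replicate 1, and that of mitochondrial members from −0.0377 to 0.0731. Between shCont and shp16+shATR the mitochondrial median ranged from −0.107, without shCont replicate 2, to 0.00385. Upper-quartile normalization gave −0.0103 for the mitochondrial median between shCont and shp16.

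An adjusted p of 0.01 left 1 member in each comparison. The share of all genes that passed at 0.01 was not computed, so this drop cannot be set against theirs. Fits of the 2 groups alone called 1 member between shCont and shp16, where 7.83% of all genes passed. limma on log2 FPKM called 6 members between shCont and shp16+shATR with either pseudocount. Of all genes 22.7% passed with a pseudocount of 1 and 21.8% with 0.1. The direction of each called member was the same under every alternative run, and 172 of 235 such fits kept the call.

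Same-numbered libraries did not deviate together, with correlations from −0.303 to 0.289, so the numbers were not taken as pairs. With the replicate number as a block, 0 members passed between shCont and shp16 in edgeR on the counts of both groups. Of all genes 2.79% passed there. With that block, limma on log2 FPKM called 5, 2 and 5 members in the order of comparisons above. The shares of all genes called were 9.59%, 3.05% and 18.9%. The causes of these changes were not tested. Counts of 6 to 20 per library limit SARS2.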
